A study of Mus musculus with 6 samples.

Results

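The genes described here carry out antigen presentation by the major histocompatibility complex (MHC) and the response to interferon, measured by RNA-seq in mouse neurospheres. They are every gene of the HTSeq count table whose symbol starts with H2-, the prefix of the mouse MHC region, which gave 22 genes, together with 28 listed genes of antigen presentation and of the interferon response, all present in the table. The 50 genes of 17551 fall into 22 of MHC class I and its peptide loading, 6 of MHC class II, 19 interferon-stimulated genes and 3 H2- genes of another kind. Of the 50, 44 passed the filter on low counts, as did 14643 genes of the whole table. The remaining 6 were H2-M5, H2-M10.4, H2-Q1, H2-Q2 and H2-Q10 of class I and H2-Ab1 of class II, each with 52 counts or fewer over all 6 libraries.

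Neurospheres are balls of neural stem and progenitor cells grown in suspension. ACVR1 (also ALK2) is a kinase receptor through which bone morphogenetic proteins signal, and G328V is a substitution in it that is known from childhood diffuse midline glioma. The 6 libraries were 3 of genotype ACVR1 G328V, numbered 1, 2 and 3, and 3 of genotype ACVR1 WT, numbered 1, 3 and 70A. All cultures had the strain background C57BL/6 and were kept in medium with EGF and FGF. The series text calls the replicates biological, but whether each came from its own animal, how the ACVR1 allele was brought in and which other alleles the cultures carried are not stated in the labels. The p-values therefore measure the spread between these libraries only. No library was treated with interferon as far as the labels say.

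The libraries held 115953495 (G328V replicate 2) to 191115532 counts (WT replicate 3), and levels below are counts per 1000000 after TMM scaling (CPM). The neural stem markers Sox2, at 134 to 237 CPM, and Vim, at 1720 to 3190 CPM, were present in every library. WT replicate 1 stood apart in others: Nes was at 963 CPM there against 91.2 to 273 CPM elsewhere, and Fabp7 at 1310 CPM against 0.182 to 65.1 CPM. Msi1 ran from 0.716 CPM in WT replicate 3 to 40.6 CPM in WT replicate 1. Of the 8 markers listed, 1 was higher in every G328V library, Prom1, at 133 to 288 CPM against at most 68.8 CPM in WT. Another, Sox9, was lower in every G328V library, at 33.2 to 80.1 CPM against 109 to 151 CPM in WT. Neither passed the test of edgeR (adjusted p = 0.997 for each). The Y-linked gene Ddx3y gave 0 to 6 counts in any G328V culture and 3119 to 7122 in any WT culture, so differences of genotype and of the sex of the source cannot be told apart.

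MHC class I molecules sit on nearly all nucleated cells and show T cells a sample of the peptides made inside. A heavy chain (H2-K1 and H2-D1 are the classical ones of this strain) pairs with beta-2-microglobulin, and the peptide is cut by the proteasome, pumped into the endoplasmic reticulum by the Tap1-Tap2 transporter and loaded with the help of tapasin. Class II molecules present peptides from endosomes and are normally restricted to professional antigen-presenting cells. Interferon raises class I, its loading machinery and a broad set of antiviral genes through a receptor, its kinases and transcription factors such as STAT2 and IRF9, and cells of the nervous system are known for low class I levels at rest.

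Across the whole group of genes, the difference between genotypes was small beside the spread between cultures of one genotype. No member passed edgeR's quasi-likelihood test at a Benjamini-Hochberg adjusted p of 0.05, and the smallest adjusted p among the members was 0.997. That test called 0 of the 14643 genes tested (0.00%). At an unadjusted p under 0.05 it held 594 genes (4.06%) and, of the 44 members, 1, H2-Eb1, which passed the filter only through its G328V libraries. DESeq2, run as an alternative, called 174 of 15502 genes with an adjusted p (1.12%) and none of the 42 members that had one, where the smallest adjusted p was 0.438. H2-Eb1 and Mx2 were the members under an unadjusted p of 0.05 by DESeq2. The G328V and WT libraries did not overlap in CPM for 2 of the 44 members, H2-Eb1 and Mx2, both higher in G328V, against 1421 of all 14643 genes (9.70%). The members' share of non-overlapping genes was thus no higher than that of all genes.

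The members varied more between libraries than genes at large. The median standard deviation of log2 CPM over the 6 libraries was 1.40 for the class I and loading genes, 1.99 for class II and 1.73 for the interferon genes, against 0.67 for all tested genes. Many of the members were also low: 34.1% of those tested had 0 counts in some library, against 13.5% of all tested genes.

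**Figure D1:**
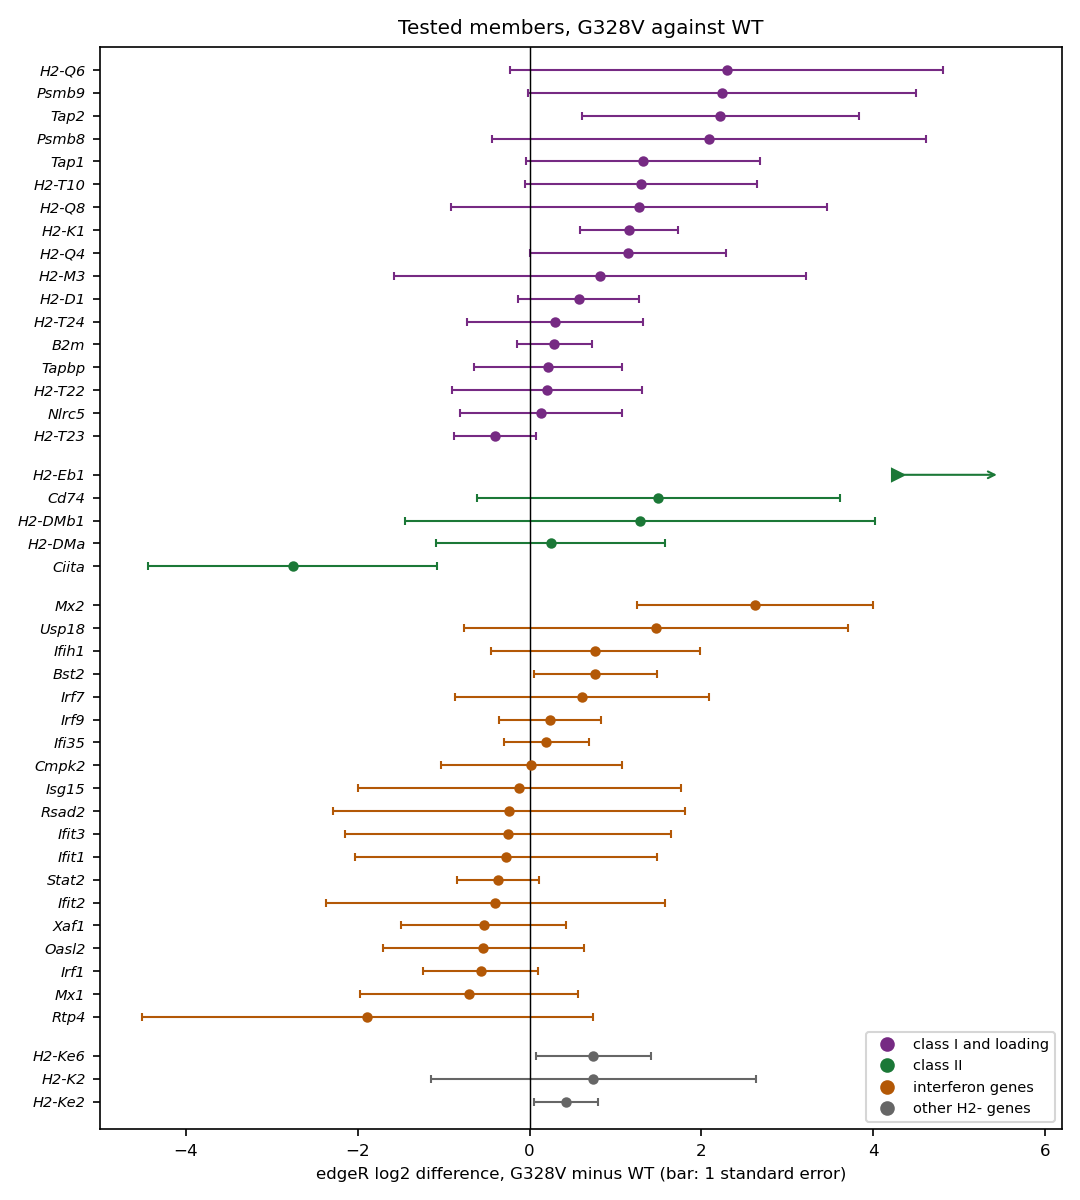
edgeR log2 differences, G328V minus WT, on the horizontal axis for the 44 tested genes, grouped and coloured by class, with bars of 1 standard error (3 libraries per group). The triangle of H2-Eb1 with its arrow is a lower bound at 4.29, with 3 counts assumed for the WT group, because all WT libraries were at 0. 16 of the 17 class I and loading genes lie to the right of 0, while the interferon genes lie on both sides.

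Class I and its loading machinery gave the clearest pattern, and it followed one library rather than the genotype. In G328V replicate 2 the 17 tested genes of this class stood a median 2.44 log2 units above their own means over the libraries, and 14 of them (82.4%) had their highest level there, against 19.1% of all tested genes. G328V replicate 3 and WT replicate 3 lay lowest, at medians of -1.30 and -1.18. WT replicate 70A was at 0.68, WT replicate 1 at 0.22 and G328V replicate 1 at -0.03. The 2 highest libraries of the class therefore included one of each genotype, and so did the 2 lowest. In bulk RNA, more cells of a kind that makes class I and more class I RNA per cell cannot be told apart. Sums of cell type markers cover those in the HTSeq table: 9 of 14 for microglia and macrophages and 3 of 4 for B cells. For T and NK cells they cover 3 of 7. In G328V replicate 2, which also had the fewest counts, the microglia and macrophage markers summed to 24.7 CPM (2.27 to 82.3 CPM in the others). The B cell markers summed to 0.108 CPM and the T and NK cell markers to 0.0665 CPM. The 5 fibroblast markers summed to 167 CPM (9.70 to 104 CPM in the others), nearly all of it Pdgfra. The part of such cells in the class I levels was not tested.

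**Figure D2:**
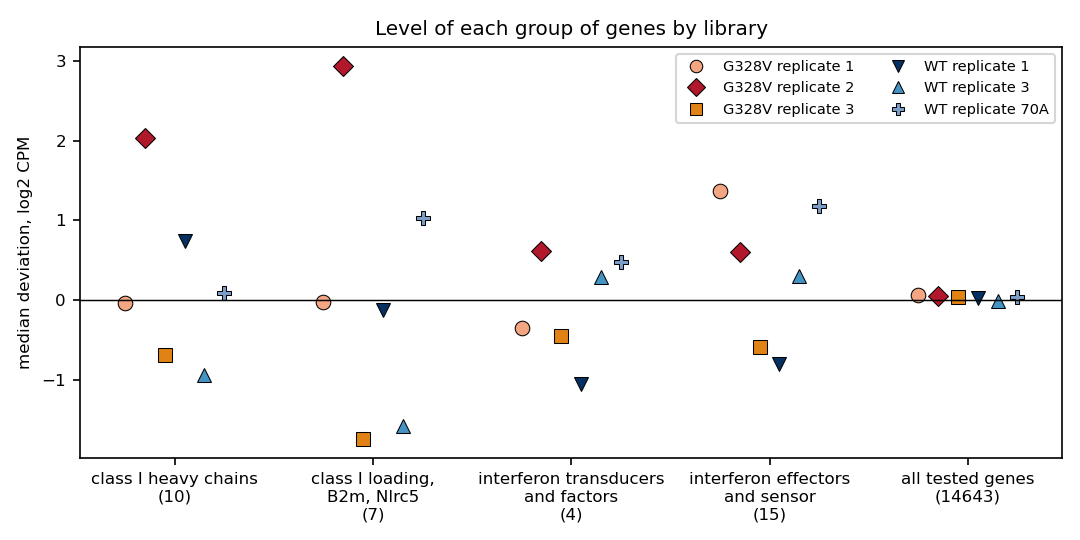
Median deviation of log2 CPM from each gene's mean over the 6 libraries, for heavy chains, the class I loading genes, both parts of the interferon genes and all tested genes. The number of genes is in parentheses, and each symbol is 1 library. G328V replicate 2 stands at 2.03 and 2.94 in the class I groups, whereas all tested genes lie within 0.06 of 0 in every library.

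Of the 17 genes, 16 had a positive log2 difference between G328V and WT, with a median of 1.15 and a range from -0.40 to 2.30, while the median over all tested genes was -0.0039, with 7275 of 14643 positive. None of the 17 passed the test. Without G328V replicate 2 the median of the class was -0.56, and 4 of 17 were positive. Without WT replicate 3 it was 0.66.

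B2m, which encodes the light chain shared by all class I molecules, had 409, 748 and 367 CPM in G328V replicates 1, 2 and 3 and 316, 298 and 633 CPM in WT replicates 1, 3 and 70A. G328V replicate 2 and WT replicate 70A were the high libraries, and the groups overlapped. The means were 508 ± 209 CPM in G328V and 416 ± 189 CPM in WT (SD, n = 3), and the edgeR log2 difference was 0.29 ± 0.44 (SE; adjusted p = 0.997).

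H2-K1, a classical heavy chain, had 81.2, 263 and 82.4 CPM in G328V and 52.8, 46.6 and 92.1 CPM in WT. G328V replicate 2 was 2.86 times the next library, WT replicate 70A, which in turn lay above the other 2 G328V libraries. Group means were 142 ± 105 and 63.8 ± 24.7 CPM (SD, n = 3), a log2 difference of 1.16 ± 0.57 that did not pass the test of edgeR (adjusted p = 0.997). Without G328V replicate 2 it was 0.36. It was the class I gene with the smallest unadjusted edgeR p, 0.0874, from the fit over all genes.

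H2-D1, the other classical heavy chain, had 128, 311 and 91.3 CPM in G328V and 65.5, 60.9 and 230 CPM in WT. The same 2 libraries as for B2m were high, one of each genotype. The log2 difference was 0.57 ± 0.70 (SE; edgeR adjusted p = 0.997), and it was -0.12 without G328V replicate 2.

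Per kilobase of exon, B2m stood at a mean of 537 CPM per kb, H2-D1 at 57.3 and H2-K1 at 35.1. H2-K1 and H2-D1 together made up 79.7% (WT replicate 1) to 93.3% (G328V replicate 3) of the CPM per kb of 14 heavy chain genes with a known length. The ratio of H2-D1 to H2-K1 per kilobase was lowest, 1.26, in G328V replicate 3, highest, 2.85, in WT replicate 70A and between 1.34 and 1.79 in the other 4. The 2 libraries with high class I thus differed in make-up, with relatively more H2-K1 in G328V replicate 2 and more H2-D1 in WT replicate 70A.

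The stretches of 250 bases before the RefSeq starts of H2-K1 and B2m (GRCm38.p6) are shown because class I genes are known to be driven from such stretches by kappaB sites, interferon response elements and the CCAAT sequence bound by NF-Y. Capitals mark the matches found, which differ between these genes. The start used for H2-K1, which has more than 1, is the one farthest upstream. H2-K1 lies on the minus strand of chromosome 17 and B2m on the plus strand of chromosome 2.
H2-K1, chr17:34000348-34000597: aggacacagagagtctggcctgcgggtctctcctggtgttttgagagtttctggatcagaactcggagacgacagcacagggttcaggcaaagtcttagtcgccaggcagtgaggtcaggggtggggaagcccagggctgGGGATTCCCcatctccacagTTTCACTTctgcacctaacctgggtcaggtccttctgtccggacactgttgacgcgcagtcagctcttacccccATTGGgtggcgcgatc
B2m, chr2:122147437-122147686: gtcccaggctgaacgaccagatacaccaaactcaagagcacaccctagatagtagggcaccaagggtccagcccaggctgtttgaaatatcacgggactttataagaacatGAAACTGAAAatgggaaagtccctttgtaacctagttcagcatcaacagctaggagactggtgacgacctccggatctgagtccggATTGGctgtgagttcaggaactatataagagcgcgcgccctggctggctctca
In H2-K1 the capitals are, in order, GGGATTCCC, a match on the minus strand to the interferon regulatory factor core AANNGAAA, and CCAAT read on the minus strand. The full response element was not found in H2-K1. In B2m, where no kappaB match was found, they are the full interferon-stimulated response element GAAANNGAAA, which contains AANNGAAA, and CCAAT on the minus strand.

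Promoters of 35 of the 50 genes were matched by symbol, and each motif was searched on both strands of the 250 bases before any start listed for the gene. GGGATTCCC was in 4 of 35 (11.4%), H2-K1, H2-D1, H2-Q6 and Irf1, and in 0.352% of all 27025 genes in the promoter table. CCAAT was in 13 of 16 class I and loading genes (81.2%) and in 37.5% of all genes, and AANNGAAA in 10 of these 16 (62.5%) and 23.9% of all genes. These are counts of letters near the starts, and related H2- genes share sequence, so they are not independent. The CCAAT matches of Tap1 and Psmb9 are the same site, counted for both genes.

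Among the non-classical heavy chains, H2-T23 encodes Qa-1, the ligand of the NKG2A receptor on natural killer cells. It had 6.60, 13.9 and 8.70 CPM in G328V and 12.4, 8.93 and 17.2 CPM in WT. It was the one tested class I gene with a negative log2 difference, -0.40 ± 0.48 (SE; edgeR adjusted p = 0.997), and WT replicate 70A was its highest library. The groups overlapped.

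H2-Q4, a non-classical heavy chain of the Qa region, had 6.74, 37.4 and 2.53 CPM in G328V and 12.2, 1.76 and 7.09 CPM in WT. G328V replicate 2 was 3.06 times the next library, which was WT replicate 1. The log2 difference of 1.15 ± 1.14 did not pass edgeR's test (adjusted p = 0.997) and was -0.60 without G328V replicate 2. H2-Q8, a neighbour in the same region, ran in parallel with 3.12, 11.3 and 0.364 CPM in G328V and 5.39, 0 and 0.689 CPM in WT. The remaining tested heavy chains (H2-M3, H2-Q6, H2-T10, H2-T22 and H2-T24) had mean levels of 0.405 to 1.55 CPM, and all but H2-T24 were highest in G328V replicate 2.

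Several of these heavy chain genes share long stretches of sequence, so their counts depend on how reads that match more than one gene were treated, which the labels do not state. Of the 50-base stretches in the transcripts of H2-T22, 34.5% also occurred in another gene, mostly H2-T10, and the share was 32.9% for H2-T10, 32.0% for H2-Q6, 21.8% for H2-Q4, 12.8% for H2-D1 and 9.6% for H2-K1. B2m had 0 shared stretches. A second deposited table, of Cufflinks fragments, allows a check: 8924 genes with 500 counts or more in each library had a median of 1.96 HTSeq counts per fragment (5th to 95th percentile 1.84 to 1.98). H2-K1 had 1.97 and H2-D1 1.96, but H2-Q4 had 1.45, H2-Q8 1.41, H2-T10 1.14, H2-T22 0.174 and H2-T24 0.0716. H2-T22, H2-T23 and H2-T24 also overlap the gene A930015D03Rik. Levels of these genes other than H2-K1 and H2-D1 are therefore uncertain, and the part of shared or overlapping sequence in the low ratios was not tested.

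**Figure D3:**
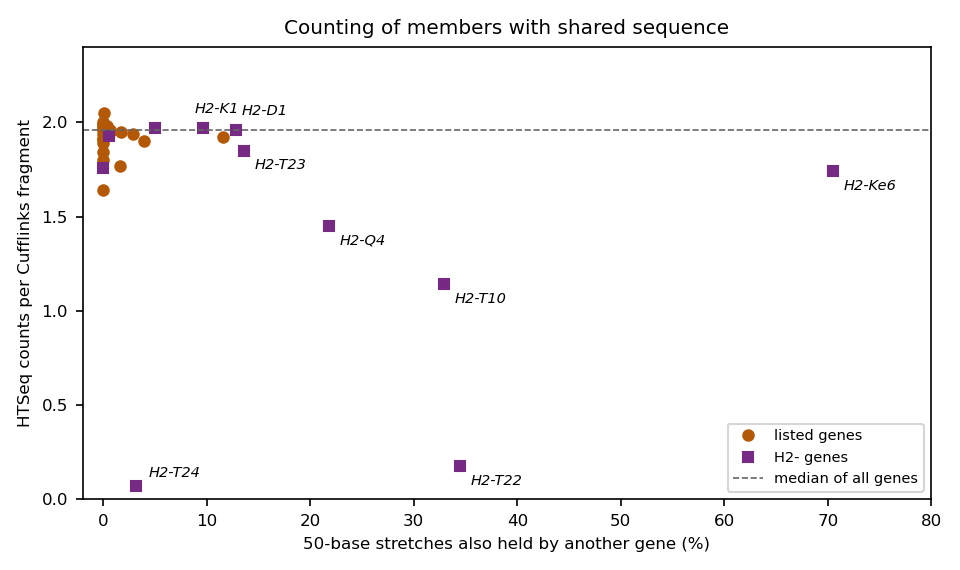
HTSeq counts per Cufflinks fragment, summed over the 6 libraries, against the percentage of each gene's 50-base stretches that also occur in another gene, for members with at least 500 counts and an annotated transcript. Squares are H2- genes and circles the listed genes. H2-K1 and H2-D1 lie at the median of all genes, the dashed line at 1.96, and H2-T22 and H2-T24 lie at 0.174 and 0.0716.

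Of the 7 genes of loading, the light chain and the transactivator, 6 were highest in G328V replicate 2, by margins from 1.01 times the next library for Tapbp to 7.85 times for Tap2. Tap1, one subunit of the peptide transporter, had 5.22, 41.1 and 0.886 CPM in G328V and 6.24, 1.77 and 10.9 CPM in WT. Tap2, its partner, had 0.816, 34.7 and 0.729 CPM in G328V and 2.26, 1.09 and 4.42 CPM in WT. G328V replicate 2 was 3.78 times the next library for Tap1 and 7.85 times for Tap2, the next library was WT replicate 70A for both, and G328V replicate 3 was the lowest for both.

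The log2 differences were 1.32 ± 1.36 for Tap1 and 2.22 ± 1.62 for Tap2 (SE), with an edgeR adjusted p of 0.997 for each. Without G328V replicate 2 they were -1.05 and -1.75. The order of the 6 libraries was the same for both subunits, except that WT replicate 3 and G328V replicate 1 changed places.

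The immunoproteasome subunits, which replace constitutive beta subunits under interferon gamma, showed the same library. Psmb8 had 0.571, 11.7 and 0 CPM in G328V and 0.414, 0.0341 and 2.42 CPM in WT. Psmb9 had 0.379, 4.49 and 0.0761 CPM in G328V and 0.228, 0 and 0.816 CPM in WT. In each, G328V replicate 2 was highest, at 4.82 and 5.51 times WT replicate 70A, the next library. The log2 difference of Psmb9 was 2.24 ± 2.26 (SE; edgeR adjusted p = 0.997) and -0.61 without G328V replicate 2.

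Psmb9, Tap1, Psmb8 and Tap2 lie next to each other on chromosome 17 (GENCODE, mm10), from 34181987, the 3′ end of Psmb9, to 34216321, the 3′ end of Tap2. Psmb9 is on the minus strand and the others on the plus strand, and Psmb9 (34181987 to 34187764) and Tap1 (34187553 to 34197225) overlap at their 5′ ends. Their RefSeq starts are 226 bases apart. The labels do not state whether the counting used strand, so reads in the overlap cannot be assigned with certainty.

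Tapbp encodes tapasin, which holds empty class I molecules at the transporter, and it did not follow the rest of the group. It had 29.0, 161 and 159 CPM in G328V and 23, 139 and 140 CPM in WT. Replicate 1 of each genotype was low and the other 4 libraries lay close together. The log2 difference was 0.21 ± 0.86 (SE; edgeR adjusted p = 0.997).

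Nlrc5, the transactivator of class I genes, also had its own order, with 41.1, 24.5 and 4.76 CPM in G328V and 24.5, 4.90 and 34.6 CPM in WT. It was highest in G328V replicate 1, and G328V replicate 2 was level with WT replicate 1. Both libraries numbered 3 were low, as they were for Tap1. The log2 difference was 0.14 ± 0.94 (SE; edgeR adjusted p = 0.997).

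**Figure D4:**
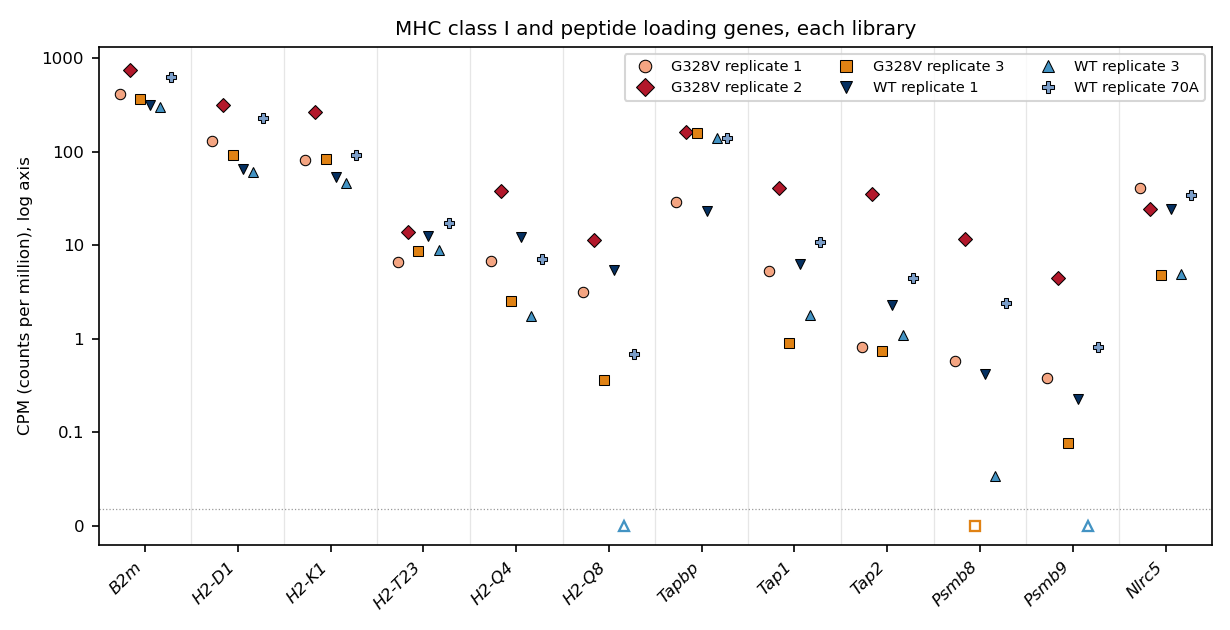
CPM on a log axis for 12 class I and loading genes in each of the 6 libraries, with libraries at 0 counts drawn as open symbols below the dotted line. The diamond, G328V replicate 2, is the highest or joint highest symbol for every gene shown except H2-T23 and Nlrc5, and the 2 genotypes overlap in all of them.

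None of 9 partners in the endoplasmic reticulum and proteasome activation passed the test, 3 of 9 had a positive log2 difference and the median was -0.06. The 3 with the smallest edgeR p were Psmb10, the third immunoproteasome subunit, at 12, 18.4 and 12.8 CPM in G328V and 3.92, 11.4 and 15.6 CPM in WT, and the chaperones Pdia3 (485 to 1070 CPM) and Hspa5 (665 to 1570 CPM). Psmb10 was highest in G328V replicate 2 too, but by a far smaller margin than Psmb8 and Psmb9. The 7 constitutive beta subunits had a median log2 difference of 0.0034, with 4 positive and none called, and of these Psmb1 (149 to 237 CPM), Psmb2 (50.3 to 96.6 CPM) and Psmb4 (132 to 177 CPM) had the smallest p.

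Of 7 factors that bind MHC promoters, 6 had a positive log2 difference, the median was 0.35 and none was called. Rfxap, a subunit of the RFX complex, had 11.9, 12.7 and 11.3 CPM in G328V and 8.17, 7.49 and 7.37 CPM in WT, with no overlap between the groups. Nfya, a subunit of the CCAAT-binding NF-Y, had 110, 128 and 106 CPM in G328V and 103, 62.2 and 104 CPM in WT, again with no overlap. Rfx5, the third with the smallest p, had 39.0, 31.4 and 19.6 CPM against 19.0, 17.1 and 27.2 CPM and did overlap. As given above, 9.70% of all tested genes do not overlap between the groups.

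Class II genes stood at or under 2.00 CPM in every library, and most of them under 1 CPM. Ciita, the transactivator without which class II genes are not made, had 7, 26 and 16 counts in G328V and 246, 52 and 7 counts in WT, or 0.0408, 0.216 and 0.0870 against 2.00, 0.296 and 0.0402 CPM. WT replicate 1 alone was above 1 CPM. Its log2 difference was -2.76 ± 1.68 (SE; edgeR adjusted p = 0.997) and -0.57 without WT replicate 1.

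H2-Eb1, a beta chain of class II, was counted 12, 11 and 36 times in G328V replicates 1, 2 and 3 and in no WT library. With 3 counts taken as the most that the whole WT group could have held, its level in G328V would be at least 19.6-fold higher. That is 4.29 on the log2 scale, on 59 counts in all. The counts were 28 fragments in the Cufflinks table, 2.11 counts per fragment, so a floor of 3 fragments would give a lower bound. H2-Eb1 passed the filter only through its G328V libraries, so its p and lack of overlap are not independent of the filter. In the fit of the Cufflinks counts no member was under an unadjusted p of 0.05. H2-Ab1, the other beta chain, had 26 counts in replicate 1 of each genotype and 0 in the other 4 libraries. H2-Aa, an alpha chain, is not in the HTSeq table and was listed at 0 fragments in all 6 libraries of the Cufflinks table. No complete pair of classical class II chains was therefore seen.

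Cd74, the invariant chain that guides class II molecules to endosomes, had 0.175, 0.482 and 0.783 CPM in G328V and 0, 0.5 and 0.00574 CPM in WT. H2-DMa, which exchanges the peptide, had 1.31, 1.26 and 0.125 CPM in G328V and 1.67, 0.216 and 0.391 CPM in WT, and its partner H2-DMb1 had 0.542, 0.365 and 0 against 0.374, 0 and 0 CPM. In all 3 the groups overlapped. The median log2 difference of the 5 tested class II genes was 1.28, with 4 positive, and it was the same with H2-Eb1 set at its bound. It rested on few counts and ran from 0.24 without WT replicate 3 (3 of 6 positive) to 1.54 without WT replicate 1, with 0.31 without WT replicate 70A.

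Markers of cells that carry class II were mostly low. Of 14 markers of microglia and macrophages, 5 are not in the HTSeq table, which does not show that they were at 0. With these 5 taken as 0, 11 were under 1 CPM in every library. Ctss had counts in only 1 library, while Csf1r reached 1.70 CPM and Tmem119 3.77 CPM. The summed level of 2.27 to 82.3 CPM was mostly Cd68, a lysosomal protein, at 1.75 to 80 CPM. The 3 of 4 B cell markers and 3 of 7 T and NK cell markers that are in the HTSeq table were under 1 CPM in every library. No marker of these lists was called. Among dendritic cell markers Flt3, also a growth factor receptor of other cells, reached 196 CPM in WT replicate 3, where Itgax had 0 counts. Of the same list, Zbtb46 had 1.93 to 7.75 CPM, above most class II genes, and Xcr1 at most 0.504 CPM. The other lists gave no called gene either: 6 of 7 endothelial markers had counts, summing to 1.58 to 19.7 CPM in G328V and 3.19 to 40.6 CPM in WT, and the fibroblast list was led by Pdgfra, at 9.65 to 158 CPM, which glial progenitors also express. The part of such cells in the class II counts was not tested.

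Endosomal proteases, which also cut peptides for class II, were abundant. None of the 5 tested genes of that list was called, 3 were positive and the median was 0.02. Ctsl had 165 to 2930 CPM, Ctsd 329 to 1090 CPM and Lgmn 88.4 to 325 CPM, each lowest in WT replicate 1.

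The interferon-stimulated genes were split between the genotypes. Of 19 genes, all tested, 8 had a positive and 11 a negative log2 difference, with a median of -0.24, a range from -1.89 to 2.63 and none called. The level of the class by library was 0.65 in G328V replicate 1, 0.61 in G328V replicate 2, -0.55 in G328V replicate 3, -0.80 in WT replicate 1, 0.30 in WT replicate 3 and 0.75 in WT replicate 70A. WT replicate 1 was the lowest library for 9 of the 19 genes (47.4%, against 22.6% of all tested genes). The highest library was G328V replicate 1 for 5 genes and WT replicate 70A for 5, so no single library led as it did for class I. The sign of the median turned without WT replicate 70A (0.30) and without G328V replicate 3 (0.19).

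Among the transducers, Stat2, a subunit of the factor that carries the type I signal into the nucleus, had 21.3, 46.0 and 21.5 CPM in G328V and 44.7, 21.5 and 48.4 CPM in WT. Its libraries fell into a high trio of G328V replicate 2 and WT replicates 1 and 70A and a low trio at 21.3 to 21.5 CPM, each with both genotypes. Irf9, the DNA-binding subunit of the same complex, had 10.5, 11 and 11.8 CPM in G328V and 3.26, 13.0 and 11.9 CPM in WT. It was even in all libraries but WT replicate 1.

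The log2 differences were -0.37 ± 0.47 for Stat2 and 0.24 ± 0.59 for Irf9 (SE), each with an edgeR adjusted p of 0.997. Irf9 was -0.18 without WT replicate 1. Irf1, a factor induced by interferon gamma that drives class I and the immunoproteasome, had 6.60, 23 and 11.3 CPM in G328V and 9.54, 15.6 and 35.5 CPM in WT. Its 2 highest libraries, WT replicate 70A and G328V replicate 2, were also those highest in B2m, H2-D1, Tap1 and Tap2, but in the other order. Its log2 difference was -0.57 ± 0.67 (SE; edgeR adjusted p = 0.997), and it was 0.10 without WT replicate 70A. Irf7, the factor that amplifies the type I response, was low, with 0.501, 2.85 and 0.212 CPM in G328V and 0.106, 1.73 and 0.494 CPM in WT.

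Of the effectors, Bst2 (tetherin, which holds budding virus at the cell surface) was the most abundant per length, at a mean of 23 CPM per kb. It had 20.3, 25.4 and 32.8 CPM in G328V and 4.13, 30.9 and 11.1 CPM in WT. WT replicate 3 lay among the G328V libraries and the other WT libraries below them. The log2 difference was 0.77 ± 0.72 (SE; edgeR adjusted p = 0.997). It was 1.76 without WT replicate 3 and 0.30 without WT replicate 1, and Bst2 was not called in either case.

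Mx2, a relative of the antiviral GTPase Mx1 and annotated as a polymorphic pseudogene, had 112, 55 and 56 counts in G328V and 1, 14 and 24 counts in WT, or 0.653, 0.457 and 0.305 against 0.00813, 0.0796 and 0.138 CPM. Every G328V library lay above every WT library, at under 1 CPM. The WT libraries of Mx2 alone, with 1 count in WT replicate 1, would not have passed the filter. This lack of overlap is thus not independent of the filter. The log2 difference was 2.63 ± 1.38 and did not pass the test (edgeR adjusted p = 0.997, DESeq2 adjusted p = 0.537). Mx1 itself had 2.46, 2.55 and 0.615 CPM in G328V and 0.179, 5.07 and 3.92 CPM in WT, and its groups overlapped.

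Isg15, Rsad2 and the 3 Ifit genes, antiviral genes known for their rise under type I interferon, had at most 4.87 CPM in any library. Isg15, a ubiquitin-like modifier, had 0.641, 0.465 and 0.190 CPM in G328V and 0, 1.18 and 0.230 CPM in WT. Ifit1, which binds viral RNA, had 1.12, 0.00831 and 0.0761 CPM in G328V and 0.146, 0.483 and 0.827 CPM in WT. The single count of Ifit1 in G328V replicate 2 stands beside that library's place at the top of class I.

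Rsad2 (viperin) likewise had 0 counts in G328V replicate 2 and 2.70 CPM in G328V replicate 1. Ifit2 and Ifit3 had at most 4.87 and 0.850 CPM, and both had 0 counts in WT replicate 3. Oasl2, Ifih1, Cmpk2 and Xaf1 had means of 1.99, 1.94, 1.21 and 2.56 CPM, and Xaf1, an inhibitor of XIAP, had 1.46, 1.01 and 3.81 CPM in G328V and 5.61, 2.29 and 1.19 CPM in WT. Ifi35 had the smallest standard deviation of log2 CPM of the 19 genes, 0.48, and ran from 5.57 CPM in WT replicate 1 to 14.9 CPM in G328V replicate 2.

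Single libraries stood out in 2 genes. Usp18, which removes Isg15 from proteins and dampens the interferon receptor, had 0.239, 0.282 and 8.76 CPM in G328V and 0, 1.30 and 2.05 CPM in WT, so G328V replicate 3 was 4.28 times the next library. Rtp4 had 0.291, 0.282 and 0.0653 CPM in G328V and 0, 0 and 2.37 CPM in WT, with WT replicate 70A at 8.12 times the next. These peaks were in different libraries and neither was in G328V replicate 2.

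**Figure D5:**
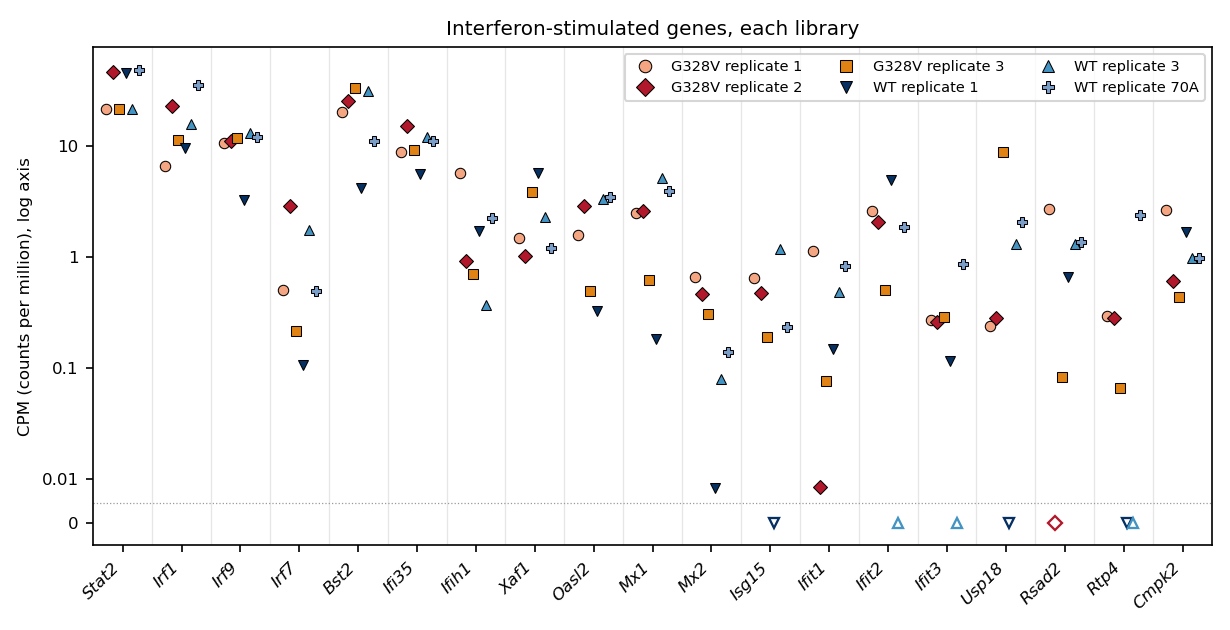
CPM on a log axis for the 19 interferon-stimulated genes in each of the 6 libraries, with libraries at 0 counts as open symbols below the dotted line. Only Stat2, Irf1, Irf9, Bst2 and Ifi35 have means of 10 CPM or more, and Mx2 is the 1 gene whose G328V symbols all lie above the WT symbols.

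The elements through which these genes are known to answer interferon are shown for the 9 members with the full response element GAAANNGAAA, in either strand, in the 250 bases before the RefSeq start (GRCm38.p6). Each window of 30 bases is written along the gene's own strand, and capitals mark the element.
Isg15, chr4:156200871-156200900, minus strand: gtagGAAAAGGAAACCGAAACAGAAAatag
Bst2, chr8:71537580-71537609, minus strand: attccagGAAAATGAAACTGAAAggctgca
Ifit1, chr19:34640785-34640814, plus strand: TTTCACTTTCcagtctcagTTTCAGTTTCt
Ifit3, chr19:34583397-34583426, plus strand: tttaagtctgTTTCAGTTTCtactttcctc
Rsad2, chr12:26456553-26456582, minus strand: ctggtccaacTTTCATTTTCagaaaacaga
Stat2, chr10:128270266-128270295, plus strand: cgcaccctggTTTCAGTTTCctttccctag
B2m, chr2:122147538-122147567, plus strand: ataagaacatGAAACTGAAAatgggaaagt
H2-T23, chr17:36032806-36032835, minus strand: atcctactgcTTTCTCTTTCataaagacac
H2-T22, chr17:36042914-36042943, minus strand: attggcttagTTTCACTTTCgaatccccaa
Isg15 holds 3 overlapping matches and Bst2 2. Ifit1 and Ifit3 hold 2 that lie apart, of which the window of Ifit3 shows the one nearer the start. The element was in 6 of the 15 interferon genes matched (40%), in 3 of 16 class I and loading genes (18.8%), and in 3.46% of all genes. The genes that carry it ran from B2m, at 298 CPM or more, to Isg15 and Ifit1, near or under 1 CPM, and only Bst2, Stat2, B2m and H2-T23 of the 9 had a mean of 10 CPM or more. The gamma-activated sequence TTCNNNGAA was in 5 of 35 members (14.3%), Irf1 and Psmb8 among them, and in 8.13% of all genes.

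Upstream of these genes, few interferons themselves were counted. Of 19 interferon ligand genes, 17 are not in the HTSeq table, so their level is not known from it. The 2 that are in it, Ifna2 and Ifnz, were under 1 CPM everywhere and did not pass the filter. Of 17 tested receptor and JAK-STAT genes none was called, 4 had a positive log2 difference and the median was -0.12. Ifnar1, a chain of the type I receptor, had 89.9, 72.6 and 51.7 CPM in G328V and 142, 126 and 130 CPM in WT, all WT libraries above all G328V libraries. Its log2 difference of -0.89 ± 0.27 (SE) had an adjusted p of 0.997 in edgeR. Irf5 had at most 2.09 CPM, in G328V replicate 2, and Pias1, a SUMO ligase, had 36.8 to 71.7 CPM.

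Among 12 tested sensors of nucleic acid and their adaptors, 3 had a positive log2 difference, the median was -0.39 and none was called by edgeR. Adar, which edits double-stranded RNA, had 45.8, 79.6 and 61.1 CPM in G328V and 34.0, 32.3 and 41.5 CPM in WT, with no overlap (log2 difference 0.79 ± 0.29 SE, edgeR adjusted p = 0.997). Aim2, a sensor of DNA in the cytosol, had 1.04, 0.490 and 0.435 CPM in G328V and 0.341, 17.6 and 36.5 CPM in WT. It was high in WT replicates 3 and 70A and as low in WT replicate 1 as in G328V, with a log2 difference of -4.79 ± 1.54 (SE; edgeR adjusted p = 0.997, DESeq2 adjusted p = 0.0199). Ddx58, the RNA sensor RIG-I, had 4.67 to 7.11 CPM in G328V and 6.04, 14.5 and 20.1 CPM in WT.

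A further list of 46 interferon-stimulated genes gave 38 tested, of which 15 had a positive log2 difference, with a median of -0.27 and none called. The groups did not overlap for 3 of the 38, Gbp2, Gbp4 and Ifi203, each lower in G328V, beside 9.70% of all tested genes in either direction. Each of the 3 had 0 counts in at least 1 G328V library and passed the filter only with its WT libraries. Their lack of overlap, and the p of Gbp2, are therefore not independent of the filter. Gbp4 and Ifi203 are named after their values were seen. Gbp2, a guanylate-binding protein induced by interferon gamma, had 0.157, 0.390 and 0 CPM in G328V and 4.39, 3.79 and 4.11 CPM in WT. All 3 WT libraries lay close to 4 CPM, and the log2 difference was -4.49 ± 1.81 (SE; edgeR adjusted p = 0.997). Levels in this list varied widely, and Ifitm2 and Ifitm3, named after their values were seen, had 20.6 to 194 and 39.8 to 533 CPM. Gbp3 and Oasl1, the others with the smallest p, overlapped between the groups and reached 11.8 CPM in WT replicate 1 and 36.4 CPM in WT replicate 3. In G328V replicate 2, where Psmb8 and Psmb9 were highest, Gbp2 was at a level below that of every WT library.

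The 3 remaining H2- genes carry the prefix for their place in the MHC region and take no part in antigen presentation. H2-Ke2, a prefoldin subunit, had 12.7 to 26.4 CPM, and H2-Ke6, a hydroxysteroid dehydrogenase, had 1.94 to 8.66 CPM. H2-K2, a pseudogene, had at most 1.40 CPM. All 3 had positive log2 differences, from 0.42 to 0.74, and H2-Ke6 and H2-K2 were highest in G328V replicate 2.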

How the data were processed

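Ribosome-depleted, stranded paired-end libraries were sequenced, per the labels' protocols. The submitters' processing notes name FastQC 0.11.3, TopHat2 2.0.13, Bowtie2 2.2.1 and mm10, without their roles. The authors deposited whole-number counts per gene (HTSeq) and estimated counts per gene (Cufflinks fragments), both unnormalized, in tables of all 6 libraries, and 0 columns belonged to other samples. The annotation, strand use and treatment of multiply matching reads are not stated.

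HTSeq counts were filtered with filterByExpr (minimum count 10), scaled by TMM (factors 0.9208 to 1.083) and tested on all genes with edgeR 4.0.16 (quasi-likelihood F-test, no covariate, Benjamini-Hochberg adjustment, threshold 0.05) in R 4.3.3. Alternatives were DESeq2 1.42.0, limma 3.58.1, other scalings and filters, the rounded estimated counts, a replicate block and leaving out each library. Totals of 115953495 to 191115532 counts make 1 count about 0.01 CPM, and 3 libraries per group limit the precision. The members and lists were chosen with earlier results of these data known. Genes named with values in every library are the main components of each pathway and members whose groups did not overlap. The up to 5 members per class with the smallest edgeR p are given in the same way. From each further list up to 3 genes with the smallest p are named. Cell type markers were not all chosen by that rule. Positions and lengths come from GENCODE vM21 by symbol (H2-Q8 unmatched), and promoters from RefSeq (GRCm38.p6).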

Additional observations from a re-analysis of the deposited data

Results flagged for a closer look

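The Cufflinks table lists 20 further H2- genes that are not in the HTSeq table, and 13 of them had 0 fragments in every library. In 4 of the remaining 7 a G328V library held more than 3 fragments and lay above every WT library in fragments per 1000000, and for each of the 4 the highest library was G328V replicate 2. H2-Bl, with 1 fragment in all, did not reach 3. The rule looked for peaks in G328V only, and no share over all genes is given for it. The other genes, H2-M10.2 and H2-T3, were highest in WT replicate 1, at 0.385 and 0.0481 per 1000000, against at most 0.0741 and 0.0166 in G328V. H2-Q7 had 761.9 fragments there, 12.7 per 1000000, against at most 6.76 in WT. H2-Q9 had 374.1 fragments, 6.23 per 1000000, against at most 1.08 in WT. H2-T9 had 499.6 fragments, 8.32 per 1000000, against at most 7.03 in WT. H2-M2 had 4.0 fragments. H2-Q7 shares 26.4% of its 50-base stretches with other genes, mostly H2-Q10, and no fold or test is given for these 4 genes. No outlier test was made, since the groups have 3 libraries.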

How the results depend on the processing

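No member was called under any of the 15 alternatives, and no alternative other than DESeq2 called a gene of the table; 8 members had no adjusted p in DESeq2. The class I median of 1.15 stayed positive except without G328V replicate 2 and ran from -0.56 to 1.44 when 1 library was left out, and the class II median from 0.24 to 1.54. By limma the medians were 0.48 for class I, 2.39 for class II and 0.32 for the interferon genes. The replicate numbers 1 and 3 occur in both groups, but nothing in the labels says that they mark shared cultures, and with correlations of deviations of 0.181 and 0.226 over 2 pairs they were not taken as paired. With the numbers as a replicate block, 0 members were called, and the medians were 0.27 for class I, 0.45 for class II and 0.34 for the interferon genes. Under that block H2-Q4 turned to -0.17, Tap1 to -0.63 and Tap2 to -1.02, and limma gave -0.064 for Tap1 and -0.040 for Tap2. Members without overlap numbered 0 with a filter of 1 CPM in 3 libraries, where H2-Eb1 and Mx2 are not tested, and 3 to 9 when 1 library was left out, 6.67% to 20.0% of members against 16.8% to 23.3% of all genes.

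Of 297 alternative values for 20 named genes, 278 kept the direction and the side of the threshold, 18 turned and 1, Aim2 by DESeq2, passed the threshold. Leaving out 1 library turned H2-D1 (-0.12 to 1.47), H2-Q4 (-0.60 to 1.77), B2m (-0.10 to 0.71), Tap1 (-1.05 to 1.95), Tap2 (-1.75 to 2.83), Tapbp (-0.28 to 0.67), Psmb9 (-0.61 to 3.83), Nlrc5 (-0.55 to 0.67), Irf1 (-1.18 to 0.10) and Irf9 (-0.18 to 0.52). It kept the sign of H2-K1 (lowest 0.36), H2-T23 (-0.75 to -0.15), Ciita (-3.59 to -0.57), Stat2 (-0.83 to -0.17), Bst2 (0.30 to 1.76), Mx2 (2.09 to 3.39), Ifnar1 (-1.09 to -0.71), Adar (0.57 to 0.97), Aim2 (-5.38 to -3.78) and Gbp2 (-5.69 to -3.90). Each range gives the lowest and highest log2 difference. Total-count scaling moved the median of all genes by 0.12 on the log2 scale. The causes were not tested. With 1 count worth about 0.01 CPM, depth limits mainly class II and the antiviral effectors.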
